A study of Mus musculus with 32 samples.

Results

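Late prenatal change of gene expression was followed in whole brains of Dhcr7 knockout (KO) mice, from the embryonic stage E14.5 to the day of birth (PND0). The 8 libraries are those the labels call KO at E14.5 (4) and KO at PND0 (4), out of 32 in the study. They were chosen by label and not by any measured value, and all genes are described. The KO brains carried the genotype Dhcr7-/- and the wild-type (WT) brains Dhcr7+/+, all of strain C57BL/6J. The labels name no treatment, litter, sex or pooling, and do not say which part of the gene is missing. Among these KO brains, Y-linked genes were nearly absent from E14.5 KO replicate 1 and PND0 KO replicates 2 and 3 only, so the mix of sexes differed between these stages. KO brains at E16.5 (4 libraries) place a change before or after that day, and WT brains at E14.5 and PND0 (4 each) measure it with the gene intact. Y-linked genes were also nearly absent from E16.5 KO replicates 1, 2 and 3, E14.5 WT replicate 2 and PND0 WT replicates 1 and 4. The mix of sexes thus differed in those comparisons as well. The labels tell the brains of a group apart by a number only, so p-values measure the spread between these samples.

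The product of Dhcr7, 7-dehydrocholesterol reductase, makes cholesterol from 7-dehydrocholesterol, and inherited loss of the enzyme causes Smith-Lemli-Opitz syndrome in people. In the mouse forebrain this interval covers the end of neurogenesis, when radial glia and intermediate progenitors divide, leave the cell cycle and yield to the first astrocytes and oligodendrocyte precursors. Neurons already born extend axons, form the first synapses and exchange embryonic receptor and transporter subunits for later ones. In bulk tissue a fall in a transcript can come from fewer cells of a type or from less RNA per cell, and these cannot be told apart here.

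Polyadenylated RNA was sequenced, and each library held 16.22 to 25.19 M counts over 24692 to 26217 genes. A count of 0 allows up to 3 counts, or 0.1176 to 0.1979 CPM by library (counts per M library counts, scaled by TMM over the 32 libraries). Such limits cover counting error only. Levels below are in CPM with replicates 1 to 4 of a stage in that order, and fold changes are PND0 over E14.5 from edgeR's quasi-likelihood test. No 2 libraries of a stage were copies, since the chi-square of their counts per degree of freedom was at least 3.78 over 12 pairs. At E14.5 it was 4.77 for replicates 1 and 2 and 3.78 for replicates 3 and 4, against 14.3 to 17.9 for the other pairs. The abundant gene CT010467.1 held 1.03% and 0.869% of counts in replicates 1 and 2, and 2.68% and 2.55% in replicates 3 and 4. Correlations of log2 CPM were 0.9914 to 0.9937 over all E14.5 pairs. What set these pairs apart was not tested. Dhcr7 (ENSMUSG00000058454.15, chromosome 7, 143823145 to 143848410, plus strand, GRCm38) stood at 13.1, 12.7, 11.9 and 14.54 CPM at E14.5 and 15.5, 11.7, 15.9 and 15.2 CPM at PND0. Its level in KO was 18.9% of that in WT at E14.5 and 16.1% at PND0, and the KO values at birth overlapped those at E14.5 (log2 fold change 0.16, SE 0.127, edgeR adjusted p 0.298). Brain genes were high throughout: the neuronal tubulin Tubb3 ran from 1606, 1571, 1447 and 1547 CPM at E14.5 to 1983, 2060.0, 2031 and 2104 CPM at PND0.

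PND0 KO replicates 3 and 4 stood apart from the other PND0 brains in genes of single brain regions. Midbrain transcription factors were nearly missing from replicate 4: En1 stood at 12.49, 12.1, 19.1 and 0.48 CPM in the 4 newborn KO brains and Pou4f1 at 15.1, 9.24, 31.3 and 0.42 CPM. Striatal genes were low in replicate 3, with the dopamine receptor gene Drd1 at 12.3, 10.8, 1.89 and 16.1 CPM and Ppp1r1b, a phosphatase inhibitor gene of its neurons, at 37.0, 37.7, 10.7 and 43.3 CPM. Newborn WT brains varied as well, with 2.08 CPM of En1 in replicate 1, and 4.99 CPM of Drd1 and 7.99 CPM of Ppp1r1b in replicate 3. None was as low in En1 or Pou4f1 as PND0 KO replicate 4, and Pou4f1 ran from 9.73 to 23.8 CPM in PND0 WT. Hox genes of hindbrain and spinal cord were close to 0 in the newborn KO brains. The 18 looked at gave 14, 35, 44 and 31 counts at E14.5 and 0, 1, 5 and 4 at PND0, against 4, 3, 14 and 94 in PND0 WT. They were low at E14.5 too, where they summed to 0.625 to 2.56 CPM by library. How much tissue of each region entered a library was not tested. Counts over lists of regional genes are given with and without PND0 KO replicates 3 and 4.

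**Figure D1:**
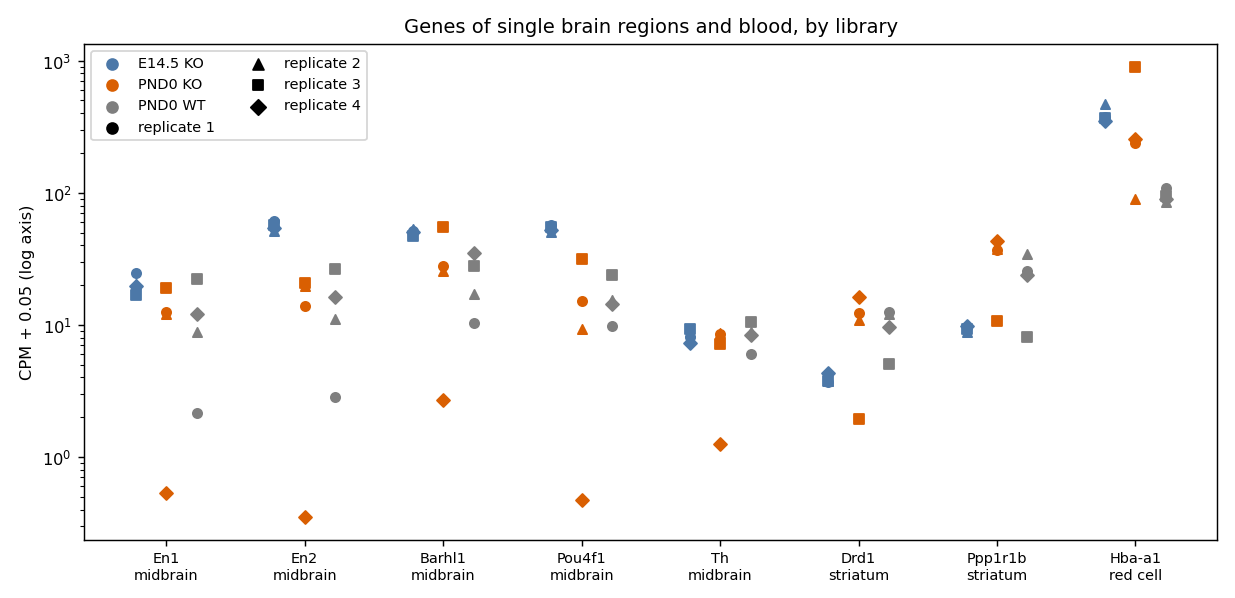
Levels of genes of single brain regions and of adult globin Hba-a1 in each E14.5 KO, PND0 KO and PND0 WT library, as CPM plus 0.05 on a log axis. PND0 KO replicate 4 holds 0.48 CPM of En1 against 12.1 to 19.1 CPM in the other newborn KO brains, and replicate 3 holds 1.89 CPM of Drd1 against 10.8 to 16.1 CPM.

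Most genes with enough counts to test changed over these days, and most single changes were small. Of 17495 genes tested, 9857 passed an adjusted p under 0.05 (56.3%). The rises numbered 5048 (28.9%) and the falls 4809 (27.5%), and the 2 stages did not overlap in 9304 genes (53.2%). Among the called genes 67.5% moved by less than 2-fold, with a median log2 fold change of 0.79 for rises and -0.596 for falls. Large changes leaned upward: 473 genes rose (2.7%) and 300 fell (1.71%) by at least 4-fold, and 116 rose (0.663%) and 46 fell (0.263%) by at least 8-fold. A test against a 2-fold change kept 999 rises (5.71%) and 561 falls (3.21%). Protein-coding genes were called in 61.2% of 14536 tested, lincRNA genes in 41.0% of 478 and processed pseudogenes in 21.7% of 554. Rising and falling genes hardly differed in transcript length, with medians of 3410 and 3651 nt.

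The 10 largest rises held 3 astrocyte genes and several of maturing neurons. Gfap (ENSMUSG00000020932.14, chromosome 11, 102887336 to 102900912, minus strand), the intermediate filament of astrocytes, measured 0.134, 0.392, 0.407 and 0.362 CPM at E14.5 and 43.7, 41.3, 53.3 and 43.1 CPM at PND0. Every newborn brain was above every E14.5 brain, and the 4 newborn values lay close together (log2 fold change 7.12, SE 0.198, edgeR adjusted p 2.01e-11). Agt, encoding angiotensinogen, which astrocytes make, measured 0, 0.157, 0.0582 and 0 CPM at E14.5 and 9.34, 11.2, 14.6 and 4.92 CPM at PND0 (log2 fold change 7.26, SE 0.57, edgeR adjusted p 4.74e-07). Aqp4, the water channel of astrocyte endfeet, went from 1.34, 1.06, 2.21 and 1.86 to 33.4, 32.6, 53.6 and 22.2 CPM, and was highest in PND0 KO replicate 3 as were Gfap and Agt. Nrgn (ENSMUSG00000053310.11, chromosome 9, 37544492 to 37552904, minus strand) encodes neurogranin, a calmodulin-binding protein of dendritic spines. It measured 6.61, 6.94, 5.99 and 6.31 CPM at E14.5 and 139, 130.4, 169 and 134 CPM at PND0, and the stages were far apart (log2 fold change 4.46, SE 0.102, edgeR adjusted p 5.21e-12). The neuronal surface protein Thy1 (4.76), the guanine deaminase Gda (4.88), the tyrosine kinase Ptk2b (4.47), the potassium channel subunit Kcns1 (4.35) and Mlip (5.52) were also among them, as log2 fold changes. Ptk2b and Mlip were lowest among newborn brains in replicate 3, at 21.9 and 6.94 CPM.

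The 10 largest falls were embryonic globins, the chromatin gene Hmga2 and transcription factor genes of progenitors and early neurons. Hbb-y, the embryonic beta globin, stood at 348, 351, 339 and 295 CPM at E14.5 and at 0 counts in all 4 newborn brains. Against a limit of 3 counts over the newborn group this was at least 7730-fold lower. Neurog1, a proneural factor gene, fell from 10.6, 10.6, 8.08 and 11.8 CPM to 0 counts in every newborn KO brain, at least 240-fold lower. Tal2 of the midbrain measured 33.3, 26.5, 32.9 and 33.2 CPM at E14.5 and 0.749, 0.528, 0.689 and 0.24 CPM at PND0, and Dbx1 of ventral progenitors 29.2, 25.6, 25.8 and 29.7 CPM at E14.5 and 0.7, 0.66, 0.631 and 0.18 CPM at PND0. Both groups were far apart for each gene (log2 fold change -5.79, SE 0.207, edgeR adjusted p 1.23e-10 for Tal2, and log2 fold change -5.64 for Dbx1). Olig3 (-4.97), Skor2 of Purkinje cells (-4.60), Nhlh1 of newly born neurons (-4.30), Hmga2 (-4.01) and Tfap2a (-3.67) fell as well, and Hba-x, an embryonic alpha globin, is taken up with the blood genes.

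**Figure D2:**
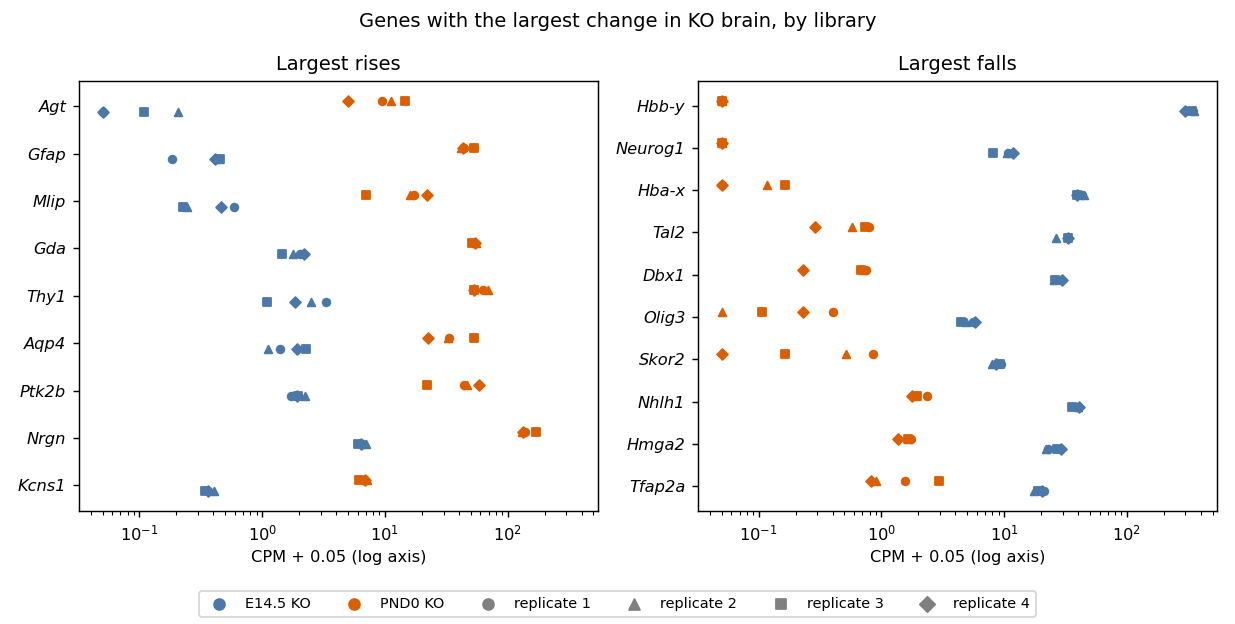
CPM plus 0.05 on a log axis for the genes named here among the largest rises and falls, each library as a point with its replicate's shape. The E14.5 KO points and the PND0 KO points do not overlap for any of these genes, which the rule for naming them required, and Hbb-y and Neurog1 lie at 0 counts in all 4 newborn brains.

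Lists of genes with a shared role show which programmes these genes belong to. Of 41 lists with a tested member, 25 had a median log2 fold change above 0 and 16 below, beside a median of -0.00169 over all genes. A median of at least 1 was reached by 8 lists, all of neurons, glia, matrix, immediate early or immune genes, and a median of -1 or less by 6. In 2 lists every tested member was called in one direction: cell cycle and proneural genes, both downward. Over all genes 28.9% rose and 27.5% fell, and the counts of each list below stand beside these shares. Of 557 list genes called, 511 were also called with each single library left out.

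**Figure D3:**
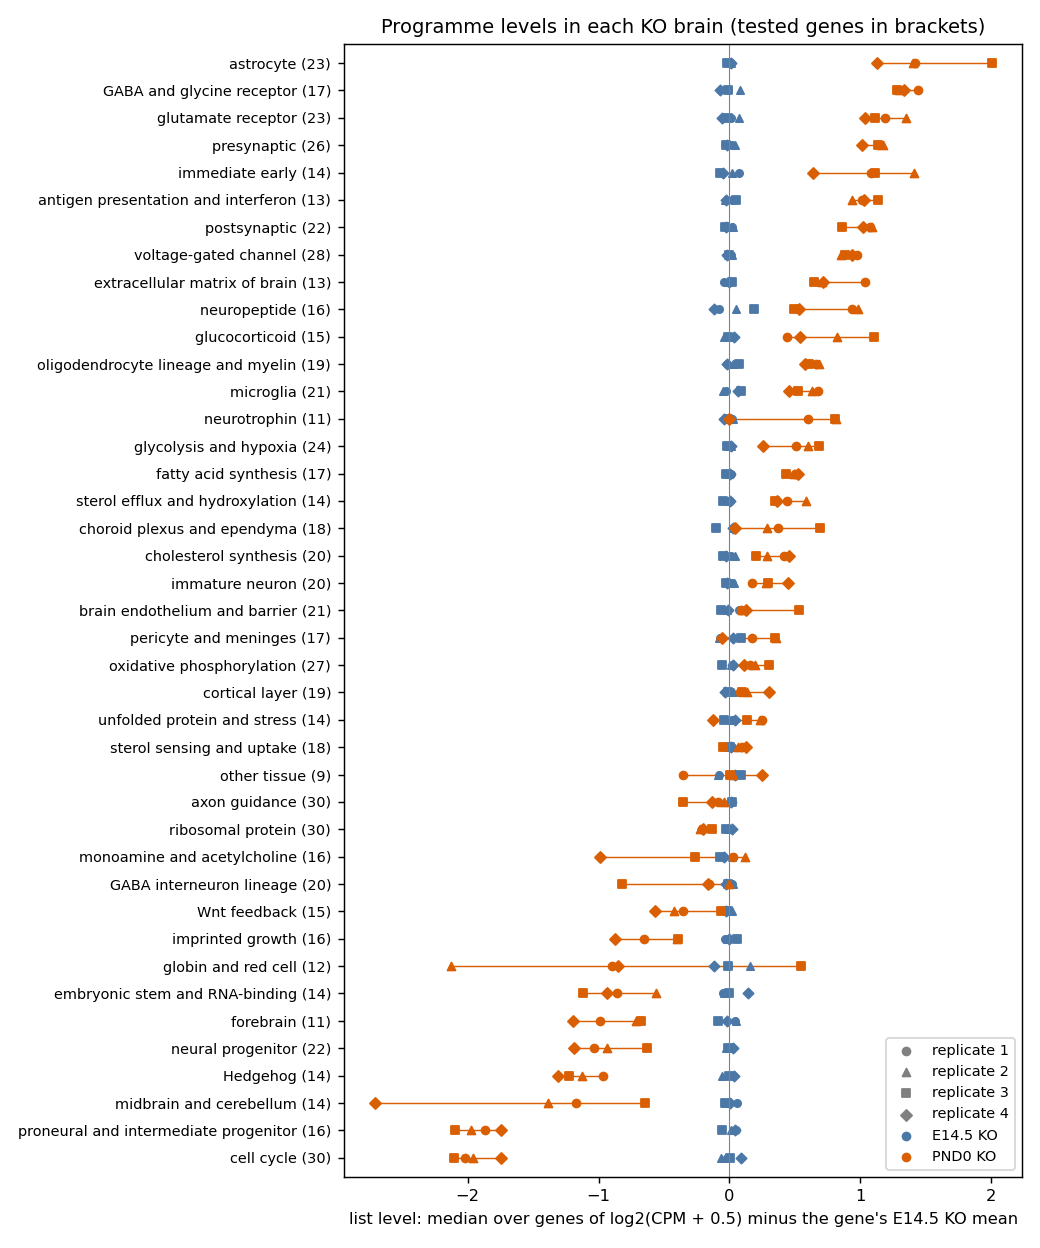
Level of each list in each E14.5 KO and PND0 KO library, as the median over its tested genes (number in brackets) of log2(CPM + 0.5) minus the gene's E14.5 KO mean. Cell cycle and proneural lists lie about 2 log2 units down in all 4 newborn brains, the astrocyte, synaptic and receptor lists lie 0.858 or more up, and midbrain and globin lists spread widely between newborn brains.

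Cell division genes fell together. All 30 members of the cell cycle list passed the filter on low counts and all 30 fell (all genes: 27.5%), with a median log2 fold change of -2.0 and none under 0.60 in size. Their summed level was 2711 to 2985 CPM in the 4 brains at E14.5, 1336 to 1551 CPM at E16.5 and 670.2 to 873 CPM at PND0, 3.73-fold lower at birth. The mitotic cyclin gene Ccnb1 (ENSMUSG00000041431.16, chromosome 13, 100778650 to 100786570, minus strand) measured 87.9, 89.3, 84.7 and 97.6 CPM at E14.5 and 16.49, 18.5, 8.95 and 19.97 CPM at PND0. The stages were well apart, and PND0 KO replicate 3 was the lowest (log2 fold change -2.50, SE 0.199, edgeR adjusted p 3.51e-06). Cdc6, which loads the replicative helicase, measured 15.98, 15.7, 18.1 and 16.6 CPM at E14.5 and 2.80, 3.76, 1.15 and 4.32 CPM at PND0 (log2 fold change -2.47, SE 0.273, edgeR adjusted p 9.01e-06). Top2a, the topoisomerase of replication and mitosis, fell by 2.44 on the log2 scale, the kinetochore kinase Bub1 by 2.39 and the proliferation marker Mki67 by 2.35. G1 cyclins moved least: Ccne1 fell by 0.60 and Ccne2 by 0.88, and the replication clamp Pcna by 1.07.

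The promoters of the 3 cell cycle genes with the largest falls are printed because many promoters of this class share 2 short elements, the cell cycle homology region (CHR, searched as TTTGAA or TTCGAA) and the CCAAT box. Each stretch is from RefSeq, build GRCm38.p6, and runs from 250 bases before the start to 30 after it, 5′ to 3′ on the gene's strand. Capitals mark the motifs searched on either strand: CHR, CCAAT and, added after the data were seen, 4 forms of the E2F site (TTTGGCGC, TTTCCCGC, TTTCGCGC, TTTGCCGC).
Ccnb1, chr13:100786457-100786736, minus strand: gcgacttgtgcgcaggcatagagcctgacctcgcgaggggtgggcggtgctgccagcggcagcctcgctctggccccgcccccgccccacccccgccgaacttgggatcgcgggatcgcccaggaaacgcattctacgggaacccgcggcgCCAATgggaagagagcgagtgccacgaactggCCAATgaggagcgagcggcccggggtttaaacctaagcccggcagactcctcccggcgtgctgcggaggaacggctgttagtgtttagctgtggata
Cdc6, chr11:98907901-98908180, plus strand: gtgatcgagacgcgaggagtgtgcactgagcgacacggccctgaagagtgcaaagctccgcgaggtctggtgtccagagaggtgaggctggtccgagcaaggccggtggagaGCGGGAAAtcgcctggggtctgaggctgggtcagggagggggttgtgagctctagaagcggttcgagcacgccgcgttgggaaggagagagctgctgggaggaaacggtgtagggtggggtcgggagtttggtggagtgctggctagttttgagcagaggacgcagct
Top2a, chr11:99024160-99024439, minus strand: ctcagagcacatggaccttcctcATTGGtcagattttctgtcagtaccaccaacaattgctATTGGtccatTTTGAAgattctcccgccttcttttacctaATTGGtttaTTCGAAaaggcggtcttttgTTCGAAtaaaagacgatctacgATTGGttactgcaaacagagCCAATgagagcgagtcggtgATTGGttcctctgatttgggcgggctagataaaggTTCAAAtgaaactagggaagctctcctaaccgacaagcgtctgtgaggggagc
Ccnb1 has 2 CCAAT boxes, which begin 99 and 67 bases before the start. Cdc6 has 1 E2F form on the reverse strand, 138 bases before the start. Top2a has 4 CHR matches, at 179, 140, 120 and 23 bases before the start, and 6 CCAAT boxes, none of which overlaps a CHR match.

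Over whole promoters of 300 bases, the CHR letters were in 12 of 25 promoters of the cell cycle list (48.0%; 24 of 30 genes matched by symbol) and in 2166 of 15742 promoters of all tested genes (13.8%). The share was 16.3% for falling genes, 11.3% for rising genes, 35.0% for genes that fell at least 4-fold and 13.4% for those that rose at least 4-fold. CCAAT was in 80.0% of cell cycle promoters and 37.3% of all, and an E2F form in 28% and 3.63%. These shares describe letters in a window and say nothing of which factor was bound.

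Radial glia and neural stem cell genes fell in most cases, with a smaller group rising. Of 22 members of the neural progenitor list, all tested, 16 fell and 4 rose, with a median of -0.94. Gli3, a transcription factor of Hedgehog signalling and dorsal patterning, measured 74.7, 69.4, 75.02 and 74.2 CPM at E14.5 and 10.9, 13.3, 16.4 and 13.1 CPM at PND0 (log2 fold change -2.45, SE 0.107, edgeR adjusted p 6.34e-10). The stages did not overlap, and PND0 KO replicate 3 was the highest newborn brain. The orphan receptor gene Nr2e1 fell by 1.85 on the log2 scale, the intermediate filament Nes by 1.77, Pax6 by 1.75, Notch1 by 1.34 and its target Hes1 by 1.25. The 4 that rose were the matrix gene Tnc (1.38), the phosphatase Ptprz1 (1.07), Hopx (1.01) and Fabp7 (0.78), genes of outer radial glia and of the astrocyte lineage. Tnc stood at 222, 223, 376 and 240.0 CPM in newborn brains, highest in replicate 3.

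Neurogenic transcription factors and Notch ligands fell in every tested case. Of 17 proneural and intermediate progenitor genes, 16 were tested and 16 fell, with a median of -2.0. Hes2 did not pass the filter on low counts and was at 0 in newborn brains. The summed level was 1038 to 1127 CPM at E14.5 and 230.3 to 354 CPM at PND0. Besides Neurog1, the cerebellar rhombic lip factor Atoh1 fell by 4.79 on the log2 scale, the cortical proneural factor Neurog2 by 3.55, the intermediate progenitor factor Eomes by 2.60 and the ligands Dll3 and Dll1 by 1.88 and 1.49. Neurod1, which persists in young neurons, fell by the least (0.72).

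Early embryonic regulators fell or stayed without a call. Of 14 chromatin and RNA-binding genes of embryonic cells, 9 fell and none rose, with a median of -1.15 (-0.81 without PND0 KO replicates 3 and 4). Hmga2 (ENSMUSG00000056758.14, chromosome 10, 120361275 to 120476469, minus strand), an architectural chromatin protein that is a target of let-7 microRNAs, measured 22.5, 21.99, 27.0 and 28.9 CPM at E14.5 and 1.70, 1.58, 1.61 and 1.32 CPM at PND0. The newborn values were tight and far below the embryonic ones (log2 fold change -4.01, SE 0.154, edgeR adjusted p 2.24e-10). Sall4 fell by 3.73 on the log2 scale, and the mRNA-binding proteins Igf2bp1, Igf2bp2 and Igf2bp3 by 2.37, 1.91 and 1.88. Lin28a (-1.45, edgeR adjusted p 0.0646), Lin28b, Mycn, Nr6a1 and Tet1 were not called.

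Imprinted growth genes split. Of 16 members 10 fell and 3 rose (median -0.60). The Notch-family ligand Dlk1 measured 124, 119.8, 136 and 126 CPM at E14.5 and 41.1, 37.7, 40.8 and 18.9 CPM at PND0 and was lowest in PND0 KO replicate 4 (log2 fold change -1.87, SE 0.221, edgeR adjusted p 1.41e-04). Mest (-1.83), Grb10 (-1.73), Peg10 (-1.52) and the cell cycle inhibitor gene Cdkn1c (-1.2) fell too. The noncoding RNAs Rian (0.94) and Meg3 (0.86) rose, as did Zim1 (1.02), and Igf2 was not called (0.046). Rian and Meg3 lie in the same imprinted cluster as Dlk1, which moved the other way.

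Hedgehog components, whose signalling depends on sterols, fell in 10 of 14 cases, with none rising and a median of -1.16. The summed level was 703 to 736 CPM at E14.5 and 261 to 299.6 CPM at PND0, so that no newborn brain reached the embryonic range. The ligand gene Shh measured 9.596, 11.4, 9.42 and 9.11 CPM at E14.5 and 4.15, 1.65, 1.32 and 1.86 CPM at PND0 (log2 fold change -2.12, SE 0.288, edgeR adjusted p 3.63e-05). The coreceptors Cdon (-1.94), Boc (-1.59) and Gas1 (-1.42), the transducer Smo (-1.12) and the effectors Gli2 (-1.85) and Gli3 fell. Of the genes that the pathway itself induces, Ptch1 fell (-1.06), while Gli1 (-0.31) and Hhip (0.49) were not called. Of 15 Wnt feedback genes 7 fell and 3 rose (median -0.33): Axin2 (-0.73) and Lef1 (-0.96) fell, and the secreted inhibitors Notum (2.68) and Dkk3 (1.35) and the gene Nkd2 (1.22) rose.

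Regional identity genes mostly fell. Of 11 forebrain factors 7 fell and none rose (median -1.10), led by the hypothalamic factors Otp (-2.60) and Sim1 (-1.96), and without PND0 KO replicates 3 and 4 10 fell, with Otp at -2.24 and Sim1 at -1.55. Of 17 midbrain and cerebellar genes 14 were tested and 8 fell, and without those libraries 13 of 15 fell. En2 measured 60.7, 51.6, 56.7 and 53.9 CPM at E14.5 and 13.9, 19.7, 20.6 and 0.3 CPM at PND0. Its log2 fold change of -2.03 was not called over all 8 libraries (edgeR adjusted p 0.0537) and was -1.74 without the pair (edgeR adjusted p 1.39e-11). Without the pair Tal2 (-5.57), Skor2 (-3.74) and Atoh1 (-5.68) were called downward as well. The 18 Hox genes of hindbrain and spinal cord did not pass the filter, and 17 of them were at 0 in every newborn KO brain.

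Astrocyte genes had the highest median among the cell type lists. Of 23 members 21 rose (all genes: 28.9%) and 1 fell, with a median of 1.58 and a summed level of 1261 to 1291 CPM at E14.5 and 2427 to 3621 CPM at PND0. Behind Agt, Gfap and Aqp4 came the GABA transporter Slc6a11 (3.37), the adhesion protein Hepacam (3.23), S100b (2.52) and Apoe (2.28), the main lipid carrier of the brain. The glutamate transporter Slc1a3 rose (0.94), while Slc1a2, the other astrocytic glutamate transporter, was not called (0.15). Fgfr3, a receptor of radial glia and astrocytes, was the 1 member to fall. It measured 129, 132, 125.2 and 148 CPM at E14.5 and 55.4, 52.3, 105.5 and 55.5 CPM at PND0, and replicate 3 stood apart from the other newborn brains but below every embryo (log2 fold change -0.99, SE 0.239, edgeR adjusted p 0.0093).

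Most oligodendrocyte lineage genes with enough counts to test rose. Of 24 members 19 were tested, 12 rose and 1 fell (median 0.59). Gpr17, a receptor of committed precursors, measured 2.10, 1.84, 1.75 and 1.29 CPM at E14.5 and 30.6, 22.4, 7.40 and 30.3 CPM at PND0, with replicate 3 far below the other newborn brains but above every embryo (log2 fold change 3.68, SE 0.458, edgeR adjusted p 1.38e-04). Olig1 (3.34) and Sox10 (2.97), lineage factors, and the precursor receptors Pdgfra (1.39) and Cspg4 (1.46) rose. The myelin genes Mbp (0.40) and Cnp (1.07) rose, with Cldn11 and Myrf not called. The late genes Mobp, Opalin, Enpp6, Fa2h and Neu4 did not pass the filter, and the early factor Nkx2-2 fell (-0.57).

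Synaptic genes rose in most cases. Of 26 presynaptic genes 21 rose, 1 fell and 4 were not called (all genes: 28.9% rose), with 2 falls without PND0 KO replicate 1 (median 1.12), and of 22 postsynaptic genes 21 rose and none fell (median 1.04). The summed presynaptic level went from 2658 to 2795 CPM to 5404 to 5824 CPM (2.07-fold). The vesicle proteins Sv2b (1.94), Syngr1 (1.71), Syn1 (1.41) and Syp (1.44), the SNARE protein Snap25 (1.57) and the calcium sensor Syt1 (1.24) rose. Syn3, a synapsin of young neurons, measured 16.7, 18.5, 20.6 and 17.7 CPM at E14.5 and 9.39, 14.2, 11.1 and 10.2 CPM at PND0 and was the 1 member to fall (log2 fold change -0.72, SE 0.137, edgeR adjusted p 5.25e-04). Timp3, on the other strand of chromosome 10, lies inside Syn3 and shares 1733 of its 12282 annotated exon bases (GENCODE M21), so reads of both genes cannot be told apart there. Timp3 measured 25.7, 24.5, 28.2 and 22.5 CPM at E14.5 and 44.0, 54.7, 71.8 and 31.4 CPM at PND0. On the postsynaptic side Camk2b (ENSMUSG00000057897.14, chromosome 11, 5969644 to 6066362, minus strand), a subunit of the calcium-calmodulin kinase, measured 126, 126, 121 and 119 CPM at E14.5 and 604, 655, 555 and 690.1 CPM at PND0. The newborn values lay at least 4-fold above the embryonic ones (log2 fold change 2.35, SE 0.0649, edgeR adjusted p 2.01e-11). The scaffolds Dlgap1 (2.03), Dlg2 (1.73), Shank3 (1.2) and Dlg4 (0.59) and the adhesion protein Nlgn1 (1.03) rose by less, and the activity-regulated gene Arc was not called.

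Receptors for the main transmitters rose in step. Of 23 glutamate receptor genes 21 rose and none fell, or 1 without replicate 3 of either stage (median 1.37). Grm5, a metabotropic receptor, measured 19.1, 23.9, 20.2 and 16.51 CPM at E14.5 and 156, 147, 147 and 157 CPM at PND0, with no overlap (log2 fold change 2.92, SE 0.0963, edgeR adjusted p 8.58e-11). The obligatory NMDA subunit Grin1 rose by 1.78 on the log2 scale, the AMPA subunits Gria1 and Gria2 by 1.43 and 0.78, and the kainate subunit Grik3 was not called. Of 19 GABA and glycine receptor genes and chloride transporters 17 were tested and 16 rose (median 1.27), with the subunits Gabrd (3.19), Gabrg3 (2.85) and Gabra5 (2.73) ahead. Of 28 voltage-gated channel genes 26 rose and 1 fell (median 0.92). The sodium channel gene Scn1a rose by 1.21 on the log2 scale. Kcna1 fell, from 1.61, 2.31, 2.85 and 2.23 to 0.45, 1.39, 0.746 and 1.32 CPM (-1.22).

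Several subunit pairs that exchange during maturation were compared per kilobase of the longest transcript, as the ratio of the later to the earlier gene. The chloride exporter Slc12a5 stood at 2.59 ± 0.08 (SD, n = 4) times the importer Slc12a2 at E14.5 and at 6.82 ± 1.65 times at PND0, with replicate 4 lowest at 4.35. The vesicular glutamate transporter ratio of Slc17a7 to Slc17a6 was 0.361 ± 0.0147 and then 1.11 ± 0.504, and the newborn values ran from 0.53 in replicate 3 to 1.72 in replicate 4. The matrix ratio of Bcan to Vcan went from 0.947 ± 0.143 to 5.34 ± 2.1. The NMDA receptor exchange differed less between stages: Grin2a stood at 0.0544 ± 0.00791 and then 0.0786 ± 0.0249 times Grin2b, and the stages overlapped. Scn8a to Scn3a was 0.809 ± 0.0445 and 0.794 ± 0.0802. The glycine receptor gene Glra1 was near 0 at both stages, at 0.00393 ± 0.00271 times Glra2 at E14.5 and 0.000714 ± 0.00143 times at PND0, where 3 of 4 brains held no count of it. Slc12a2 had no call (-0.057), so that its ratio moved with Slc12a5 (1.32).

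Transmitter and trophic genes were more mixed. Of 20 neuropeptide genes 16 were tested, 8 rose and 1 fell (median 0.93). Cck, a peptide of cortical neurons, measured 5.27, 5.61, 5.76 and 4.86 CPM at E14.5 and 38.1, 41.0, 37.5 and 36.3 CPM at PND0, and the stages were far apart (log2 fold change 2.83, SE 0.101, edgeR adjusted p 1.23e-10). Avp of the hypothalamus rose by 4.04 on the log2 scale but spread from 1.80 to 10.05 CPM among newborn brains. Gnrh1 fell (-1.06), a call lost without replicate 2 or replicate 3 of either stage (edgeR adjusted p 0.054 to 0.0687). Of 16 monoamine and acetylcholine genes 4 rose and 4 fell, and 5 rose and 5 fell without PND0 KO replicates 3 and 4. The noradrenergic genes Dbh and Slc6a2 fell by 3.40 and 3.37 (Slc6a2 by 5.49 without PND0 KO replicate 2), and the glycine transporter Slc6a5 by 2.78, all genes of hindbrain neurons. The serotonin transporter Slc6a4, which hindbrain neurons also express, went the other way and rose (1.16). The rate-limiting enzyme Th had no call and stood at 1.199 CPM in PND0 KO replicate 4 against 7.06 to 8.58 CPM in the others. Of 12 neurotrophin genes 11 were tested, 6 rose and 2 fell, with Ntf3 (2.47), Bdnf (1.09) and the receptor Ntrk2 (1.15) up and Ngfr (-0.90) down.

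Axon guidance genes moved in both directions. Of 30 members 12 fell and 6 rose, beside 27.5% and 28.9% of all genes (median -0.11). Robo3, which lets commissural axons reach the midline, measured 64.9, 58.0, 69.3 and 79.8 CPM at E14.5 and 17.9, 9.11, 28.5 and 7.08 CPM at PND0, and Dcc, the netrin receptor, 169, 163, 184 and 184 CPM at E14.5 and 56.7, 60.1, 56.6 and 61.6 CPM at PND0. Neither gene's stages overlapped (log2 fold change -2.11, SE 0.427, edgeR adjusted p 0.00489 for Robo3, and log2 fold change -1.58 for Dcc). Epha3 (-1.01), Slit2 (-0.93) and Robo1 (-0.60) fell, and Sema3c (1.12) and Unc5a (1.06) rose.

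Genes of young neurons moved in both directions. Of 20 members 11 rose and 6 fell (median 0.27). Nhlh1 (ENSMUSG00000051251.3, chromosome 1, 172052292 to 172057573, minus strand) measured 38.7, 39.8, 35.9 and 40.4 CPM at E14.5 and 2.30, 1.85, 1.89 and 1.74 CPM at PND0 (log2 fold change -4.30, SE 0.121, edgeR adjusted p 2.05e-11). Nhlh2 (-1.84) and Sox11 (-1.13) fell with it, while the growth cone genes Stmn2 (1.25) and Gap43 (1.15) and the splicing factor of mature neurons Rbfox3 (0.78) rose. Of 19 cortical layer genes 9 rose and 4 fell (8 fell without PND0 KO replicates 3 and 4). The list median was close to 0 (0.0099), and its sign turned with transcript length offsets, with no filter on low counts, and without E14.5 KO replicate 1 or 4 or PND0 KO replicate 1, 2 or 4. Crym of deep layers measured 8.17, 8.51, 10.9 and 7.19 CPM at E14.5 and 42.4, 41.4, 58.0 and 56.5 CPM at PND0 (log2 fold change 2.51, SE 0.15, edgeR adjusted p 1.62e-08). Lhx5, which Cajal-Retzius cells express, fell by 2.07, and Pou3f2 of upper layers by 0.65. Of 22 GABAergic lineage genes 20 were tested, 9 rose and 7 fell (median -0.387), and without PND0 KO replicates 3 and 4 9 rose and 9 fell (median -0.0809). The median was -0.148 without PND0 KO replicate 3 alone. Ventral progenitor factors Nkx2-1 (-2.02), Gsx2 (-1.75) and Dlx2 (-1.3) fell, and the interneuron genes Npy (2.50), Calb2 (1.61) and Sst (1.18) rose. The GABA-synthesising enzymes parted, Gad1 up (0.75) and Gad2 down (-0.71), and Pvalb and Vip did not pass the filter.

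Cholesterol synthesis genes rose by small amounts in these brains. Of 20 members, Dhcr7 left out, 17 rose and none fell (all genes: 28.9% rose), with a median of 0.35. The summed level was 2403 to 2555 CPM at E14.5 and 3069 to 3600.0 CPM at PND0 in KO, beside 1877 to 1947 and 1881 to 2955 CPM in WT. Mvd (ENSMUSG00000006517.5, chromosome 8, 122433601 to 122443422, minus strand), the decarboxylase of the mevalonate pathway, measured 39.5, 40.3, 39.4 and 36.8 CPM at E14.5 and 88.1, 72.4, 79.5 and 80.3 CPM at PND0. All newborn brains were above all embryos (log2 fold change 1.04, SE 0.0732, edgeR adjusted p 5.00e-08). Hmgcs1, an early enzyme of the pathway, measured 548, 602, 538 and 551 CPM at E14.5 and 918, 919, 911 and 974 CPM at PND0 (log2 fold change 0.73, SE 0.0468, edgeR adjusted p 1.90e-08). Idi1, Ebp and Sc5d, the last 2 being enzymes shortly before Dhcr7, were not called.

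Genes that sense, take up and remove sterols did not share a direction. Of 18 sensing and uptake genes 7 rose and 4 fell, and 2 fell without E14.5 KO replicate 1 or 3 or PND0 KO replicate 1 or 2. Srebf2, the main activator of the pathway, had no call (0.026), while the escort protein Scap (0.43), the retention protein Insig1 (0.35) and the lipoprotein receptors Scarb1 (0.91) and Vldlr (0.67) rose. Of 15 efflux and hydroxylation genes 14 were tested, 8 rose and 3 fell (median 0.47). Cyp46a1 (ENSMUSG00000021259.5, chromosome 12, 108334381 to 108362234, plus strand), the neuronal cholesterol 24-hydroxylase, measured 19.5, 16.9, 16.4 and 21.7 CPM at E14.5 and 43.9, 46.0, 48.8 and 37.4 CPM at PND0, and no newborn value overlapped an embryonic one (log2 fold change 1.24, SE 0.111, edgeR adjusted p 5.38e-07). Cyp39a1, another oxysterol hydroxylase, fell by 1.42 and Abca7 by 0.65. Of 17 fatty acid synthesis genes 11 rose and 1 fell, or 2 without PND0 KO replicate 4 (median 0.47), with Thrsp (2.55), Me1 (1.37) and the desaturase Scd1 (1.22) up and Acly down (-0.41).

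Glycolysis genes rose in most cases, and genes of the respiratory chain and of ribosomes had medians close to 0. Of 24 glycolysis and hypoxia genes 15 rose and 3 fell (median 0.63). The neuronal enolase Eno2 measured 37.1, 39.3, 34.8 and 36.5 CPM at E14.5 and 149, 146, 143 and 98.6 CPM at PND0 (log2 fold change 1.86, SE 0.119, edgeR adjusted p 9.99e-08), and Pfkp (1.54), the neuronal glucose transporter Slc2a3 (1.53) and Hk1 (1.23) rose while Hk2 (-1.32) and Pkm (-0.53) fell. Of 27 oxidative phosphorylation genes 15 rose and none fell, with a median of 0.20 and 0.58 for the largest, Cox6a1. With E14.5 KO replicate 3 left out 9 rose. Of 30 ribosomal protein genes 21 fell and 2 rose (median -0.18), and 10 fell and none rose in the fit of all 32 libraries. Rpl13a (-0.56) and Rpl5 (-0.41) fell by the most, and reads of ribosomal protein genes are shared with many processed pseudogenes.

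Stress and hormone genes held some large single changes. Of 14 unfolded protein and stress genes 5 rose and 2 fell: the pseudokinase Trib3 (2.34), Asns (1.24) and the cystine transporter Slc7a11 (1.24) rose, Psat1 fell (-1.02), and Ddit3, Atf4 and Hspa5 were not called. Of 16 glucocorticoid-responsive genes 15 were tested, 11 rose and none fell (median 0.81). Klf9 (ENSMUSG00000033863.2, chromosome 19, 23141226 to 23168134, plus strand), a factor induced by glucocorticoid and thyroid hormone, measured 3.30, 3.49, 3.61 and 2.74 CPM at E14.5 and 23.2, 37.6, 36.6 and 23.0 CPM at PND0, and all newborn values exceeded the embryonic ones (log2 fold change 3.19, SE 0.195, edgeR adjusted p 1.91e-08). Sult1a1 (2.28), the mineralocorticoid receptor Nr3c2 (2.27), Mt1 (1.71) and Per1 (1.34) rose, but Fkbp5 (-0.14) had no call. Of 15 antigen presentation and interferon genes 13 were tested, 10 rose and none fell (median 1.21), at low levels. Ifit3 measured 0.223, 0.0392, 0.582 and 0 CPM at E14.5 and 1.60, 2.11, 1.21 and 1.44 CPM at PND0 (log2 fold change 2.98, SE 0.644, edgeR adjusted p 0.00143), and Psmb8 (2.56), Tap1 (2.51) and H2-D1 (1.21) rose while Irf1 and Isg15 were not called.

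Immediate early genes, which neurons and other cells switch on within minutes of a stimulus, rose in 10 of 14 tested cases with 1 fall (median 1.59), and in 9 with 3 falls without PND0 KO replicate 3. Fos measured 1.38, 1.254, 0.93 and 1.24 CPM at E14.5 and 6.75, 9.17, 16.1 and 4.32 CPM at PND0. All newborn brains were above all embryos, with replicate 3 the highest and replicate 4 the lowest (log2 fold change 2.90, SE 0.379, edgeR adjusted p 4.24e-05). Fosb (3.02), Egr1 (2.52), Egr3 (2.21) and Nr4a1 (1.86) rose, Jun, Ier2 and Dusp1 were not called, and Btg2, which is also a gene of neurogenic divisions, fell (-1.68). Time from birth to collection is not in the labels, and its part in these levels was not tested. The Fos promoter, chosen after its values were seen, is printed because the list's promoters share a short cyclic AMP element, searched as TGACG on either strand and marked in capitals, in the same window and build as above.
Fos, chr12:85473640-85473919, plus strand: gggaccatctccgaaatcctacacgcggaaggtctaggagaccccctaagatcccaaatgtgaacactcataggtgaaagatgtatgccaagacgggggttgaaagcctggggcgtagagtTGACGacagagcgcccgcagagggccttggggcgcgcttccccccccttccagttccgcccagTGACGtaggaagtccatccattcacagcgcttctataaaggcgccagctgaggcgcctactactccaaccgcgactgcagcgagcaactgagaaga
Its 2 matches begin 129 and 66 bases before the start. TGACG was in 12 of 15 immediate early promoters of 300 bases (80.0%, 11 of 14 genes matched) and in 28.9% of the promoters of all tested genes.

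Matrix genes of the perineuronal net family rose. Of 13 members 8 rose and 1 fell, or 2 without PND0 KO replicate 1 or 4 (median 1.11). Bcan (ENSMUSG00000004892.13, chromosome 3, 87987531 to 88000230, minus strand), encoding the proteoglycan brevican, measured 49.2, 48.9, 42.3 and 39.6 CPM at E14.5 and 192, 172, 277 and 144 CPM at PND0, highest in replicate 3 (log2 fold change 2.12, SE 0.21, edgeR adjusted p 5.93e-05). Acan (2.44), Tnr (1.88) and Hapln1 (1.11) rose, and the embryonic proteoglycan Vcan fell (-0.33), with PND0 KO replicate 4 inside the embryonic range.

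Non-neural cells were read from their marker lists. Of 21 microglial genes 11 rose and 1 fell (median 0.71). The complement genes C1qa (1.17), C1qb (0.86) and C1qc (1.11) and the receptor Trem2 (1.52) rose, while the homeostatic markers P2ry12, Cx3cr1 and Tmem119 were not called. Sall1 fell (-1.67), a factor gene that neural progenitors also express. Of 21 endothelial and barrier genes 8 rose and 3 fell (median 0.15, and 0.0407 without PND0 KO replicate 3, 0.0801 without E14.5 KO replicate 2, 0.226 without E14.5 KO replicate 4 and 0.255 without PND0 KO replicate 1). The transporters Slco1c1 (1.89) and Abcb1a (1.13), the tight junction gene Cldn5 (0.61) and Ly6c1 (3.17) rose, and pan-endothelial Pecam1, Tek and Esam were not called. The 3 falls were Tie1 (-0.30), Kdr (-0.25) and Cdh5 (-0.25), and none of them was called without E14.5 KO replicate 1 or 3 or PND0 KO replicate 1 (edgeR adjusted p 0.0505 to 0.117). Pericyte and meningeal genes gave 8 rises and 3 falls of 17, and 5 rises with the 32 libraries fitted together. Of 18 choroid plexus and ependymal genes 7 rose and 5 fell: cilium genes of ependyma rose from near 0, Ccdc153 from 0.0446, 0, 0 and 0.155 to 1.499, 1.45, 2.07 and 1.02 CPM, and the roof plate factor Lmx1a fell (-1.86). Markers of muscle, skin, liver, cartilage and pituitary summed to 173 to 195 CPM at E14.5 and 38.3 to 91.2 CPM at PND0, most of it the cartilage collagen Col2a1, at 162, 156, 177 and 171 and 26.9, 22.4, 57.7 and 17.0 CPM.

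Globins of the embryonic type fell to the counting limit. Red cells of the yolk sac carry them, and those of the fetal liver carry the adult type. Hba-x measured 43.0, 44.9, 39.1 and 39.0 CPM at E14.5 and 0, 0.066, 0.115 and 0 CPM at PND0, with 2 newborn brains at 0, and its count ratio of E14.5 to PND0 was 967 (95% counting interval 331 to 4690). Hbb-bh1 stood at 1.52, 2.08, 1.63 and 2.33 CPM at E14.5 and at 0 counts in all newborn brains, at least 43.8-fold lower. Adult globins did not pass the test: Hba-a1 measured 372, 472, 369 and 349 CPM at E14.5 and 237, 90.1, 903 and 256 CPM at PND0. Among these KO libraries PND0 replicate 3 was the highest and PND0 replicate 2 the lowest, and newborn WT brains stood at 109, 84.8, 94.9 and 89.9 CPM. The direction of the KO change turned without E14.5 KO replicate 2 or PND0 KO replicate 1, 2 or 4. The near-identical pairs Hba-a1 and Hba-a2, and Hbb-bs and Hbb-bt, may share reads. Without PND0 KO replicates 3 and 4, 7 of 12 tested blood genes fell rather than 4.

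The changes were spread over both parts of the interval. In the fit of 12 KO libraries 9272 of 18178 genes were called from E14.5 to E16.5 (51.0%) and 9324 from E16.5 to PND0 (51.3%). Of 5041 genes that rose over the whole interval, 1535 were called upward in both legs, 1196 in the first only and 1410 in the second only. Of 4808 that fell, 1031 were called downward in both, 1448 in the first only and 1229 in the second only. Both legs share the E16.5 libraries, and each stage is a deposited table of its own, so stage cannot be told apart from whatever differed between the tables.

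The 2 legs were unequal for many genes and lists. The second leg differed from the first in 7353 genes (40.4%), with 3712 larger (20.4%) and 3641 smaller (20.0%). By median log2 fold change, the cell cycle list moved evenly (-1.03 and -0.921), as did the proneural (-1.02 and -1.05), presynaptic (0.495 and 0.531) and astrocyte lists (0.817 and 0.786). Neural progenitor genes moved mostly before E16.5 (-0.771, then -0.107), and so did voltage-gated channels (0.699, then 0.212) and Hedgehog genes (-0.738, then -0.359). Immediate early genes (0.291, then 1.07), glucocorticoid genes (0.33, then 0.814) and fatty acid synthesis genes (-0.0994, then 0.51) moved mostly after it. Ribosomal protein genes turned, from 0.299 to -0.438, as did oxidative phosphorylation genes, from 0.22 to -0.171.

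**Figure D4:**
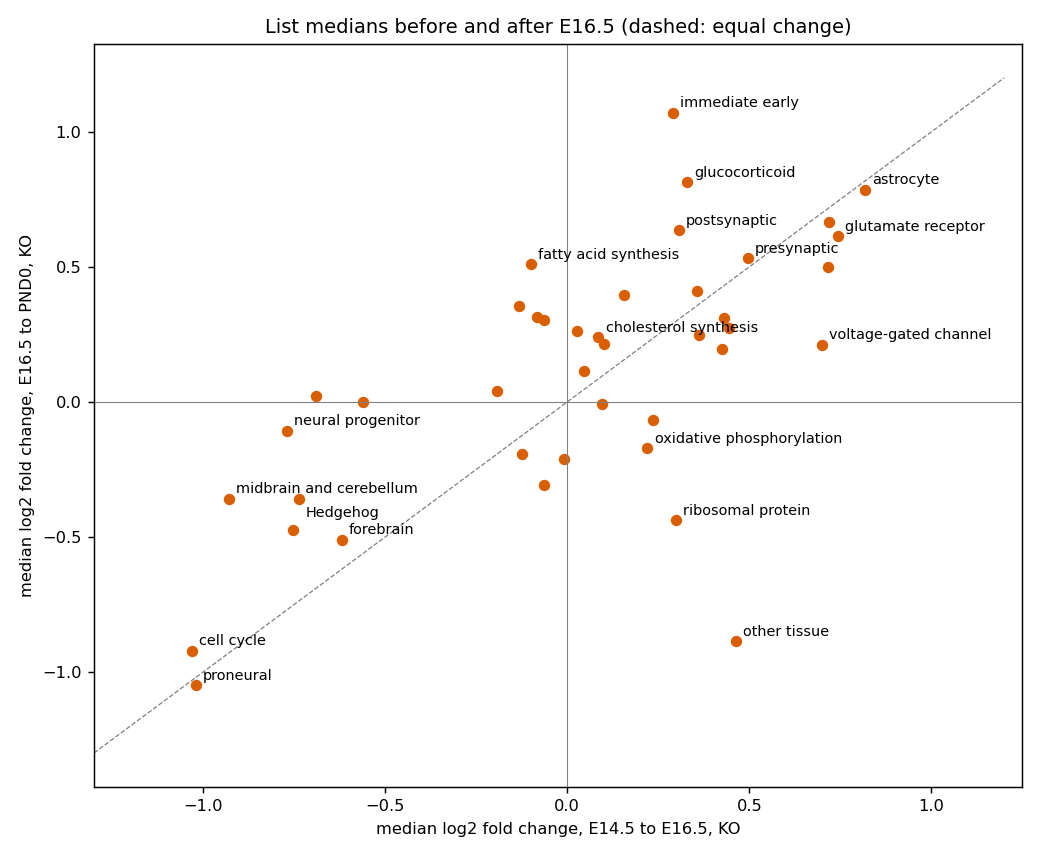
Median log2 fold change of each list from E14.5 to E16.5 (x axis) and from E16.5 to PND0 (y axis) in KO brain, with a dashed line where both legs are equal. Cell cycle and proneural lists sit near the line at about -1 on both axes, immediate early and glucocorticoid lists lie above it, and the ribosomal protein list (0.299 and -0.438) and that of other tissues (0.462 and -0.885) lie below it.

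The genes with the most unequal legs peaked or dipped at E16.5. Rpl39, a short ribosomal protein gene, measured 91.1, 80.0, 81.4 and 88.6 CPM at E14.5, 196, 235, 190.1 and 224 CPM at E16.5 and 73.8, 78.4, 71.5 and 72.5 CPM at PND0, and Usp9x, a deubiquitinase, 83.3, 79.6, 82.3 and 86.5 CPM at E14.5, 177, 166, 186 and 190.5 CPM at E16.5 and 59.7, 60.3, 50.7 and 63.9 CPM at PND0. In the other direction the cytoplasmic actin Actg1 measured 1700.0, 1705, 1724 and 1683 CPM at E14.5, 924, 981, 998 and 854 CPM at E16.5 and 1857, 1883, 1937 and 2095 CPM at PND0. In each case the E16.5 values lay outside those of both other stages. WT brains had the same turn, with 254, 239, 230.4 and 257 CPM of Rpl39 and 974, 866, 918 and 860.3 CPM of Actg1 at E16.5, against 1743, 1750.0, 1608 and 1745 CPM of Actg1 at E14.5 and 1989, 1824, 1907 and 1640.0 CPM at PND0. Whether the turn belongs to the stage or to its table cannot be told apart. Nr2c2 peaked likewise (leg log2 fold changes 1.74 and -2.70), and Pom121 (-1.3 and 0.70) and Iqsec1 (-0.68 and 1.05) dipped.

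WT brains went through much the same change. In a fit of 16 libraries 10917 of 18802 genes were called in WT (58.1%), 5533 upward (29.4%) and 5384 downward (28.6%), and 10501 in KO. Of these 8569 were called in both genotypes and 24 of them in opposite directions, so that 81.4% of the KO calls and 78.3% of the WT calls had a partner of the same direction. Over all 18802 genes the KO and WT log2 fold changes had a Pearson correlation of 0.874. The median ratio of the KO to the WT log2 fold change over genes called alike was 0.977, a choice that leaves out genes called in only 1 genotype. List medians in KO and WT shared a sign for cell cycle (-2.0 and -2.21), proneural (-2.0 and -2.0) and postsynaptic genes (1.04 and 1.02). So did those for cholesterol synthesis (0.35 and 0.30) and astrocyte genes (1.58 and 1.23). The sign was also shared for GABA and glycine receptors (1.27 and 1.63), ribosomal protein genes (-0.179 and -0.462) and oxidative phosphorylation (0.199 and 0.0193). Monoamine and acetylcholine genes had medians of opposite sign (-0.262 and 0.695), and the KO median was 0.0227 without PND0 KO replicate 4. The largest gap was in the blood list (-0.12 and -2.20). Its summed level was 651, 330, 2406 and 732 CPM in the newborn KO brains, against 290 to 356 CPM in newborn WT. PND0 KO replicate 3 was thus the highest, and replicates 1 and 4 were also above every newborn WT brain. The KO median of the blood list was -1.41 without PND0 KO replicates 3 and 4, and above 0 without replicate 2 or 4 alone.

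The difference between the 2 genotypes' changes was called in 110 of 18802 genes (0.585%), 48 with a larger value in KO (0.255%) and 62 with a smaller one (0.33%). Fitting the 32 libraries together left 1 gene, and the number was 13 with transcript length offsets (3 larger, 10 smaller) and 663 with no filter on low counts (361 larger, 302 smaller). It was 16 to 38 without any 1 E14.5 KO library, 17 to 30 without E14.5 WT replicate 1, 3 or 4, 52 without PND0 WT replicate 3, and 273 to 380 without PND0 KO replicate 4 or PND0 WT replicate 2 or 4. Among genes averaging 1 CPM or more, the 5 with the lowest p were Lmtk2, Mtor, Map3k9, Ksr2 and 4931406P16Rik, all smaller in KO. Mtor, the growth-regulating kinase, went from 141, 139.9, 144 and 148 to 99.7, 105, 87.2 and 92.3 CPM in KO and from 144.7, 148, 141 and 152 to 148, 149.9, 164 and 146 CPM in WT (difference of log2 fold changes -0.62, SE 0.0841, edgeR adjusted p 0.00101). Among list members, 3 that bear on the programmes above were the desaturase Scd1, the Hedgehog receptor Ptch1 and Syn3. Scd1 stood at 65.0, 59.0, 58.7 and 65.0 CPM in KO and 87.9, 75.8, 93.9 and 80.3 CPM in WT at PND0, with no overlap (difference of log2 fold changes -0.62, SE 0.141, edgeR adjusted p 0.0425). Ptch1 went from 75.5, 77.2, 86.7 and 82.4 to 46.4, 37.8, 34.8 and 35.0 CPM in KO and from 92.1, 92.6, 88.1 and 94.3 to 64.3, 66.5, 81.3 and 68.5 CPM in WT (difference of log2 fold changes -0.66, SE 0.121, edgeR adjusted p 0.0147). The fall of Ptch1 was larger in KO, and the newborn groups were apart. The Hedgehog list as a whole fell in both genotypes, in 10 of 14 genes in KO (median -1.16) and 12 of 14 in WT (median -1.36, fit of 16 libraries). The median difference of log2 fold changes over that list was 0.0412. Syn3 fell in KO while WT stood at 20.4, 24.2, 14.2 and 17.9 CPM and then 32.5, 28.4, 57.4 and 27.8 CPM (difference of log2 fold changes -1.63, SE 0.31, edgeR adjusted p 0.0293). The overlapping gene Timp3 rose in both genotypes, and its own difference was not called (difference of log2 fold changes -0.45, SE 0.262, edgeR adjusted p 0.433). With each of the 16 libraries left out in turn, the Ptch1 call was lost in 2 cases (E14.5 KO or E14.5 WT replicate 3, edgeR adjusted p 0.0563 and 0.0643), the Syn3 call in 8 and the Scd1 call in 10, up to adjusted p 0.0905 and 0.12. Most of the losses were with E14.5 libraries left out, and Syn3 lost the call also without PND0 KO replicate 3 and Scd1 without PND0 KO replicate 2 or PND0 WT replicate 1 or 3.

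Other members with a called difference were smaller in size or regional. Cortical Emx1 (0.70) and Rprm (0.54), Pcna (0.38), Stmn1 (0.32), Rplp1 (0.50) and Rps18 (0.40) had a larger value in KO as a difference of log2 fold changes. Gad2 (-0.46) and Peg3 (-0.56) had a smaller one. Dbh (-3.92) and Slc6a5 (-2.70) are genes of hindbrain neurons, and Slc6a5 stood at 0.4, 0.528, 0.344 and 0.24 CPM in newborn KO and 1.27, 1.74, 4.59 and 5.79 CPM in newborn WT brains. Hox counts were 0 to 5 in the newborn KO brains and 4, 3, 14 and 94 in WT. The part of hindbrain tissue in the Dbh and Slc6a5 differences was not tested. Of the 18 genes named here with a call, 6 kept it with every single library left out, namely Lmtk2, Mtor, Map3k9, Ksr2, 4931406P16Rik and Gad2. The other 12 lost it without 2 to 13 of the 16 libraries, and for each of them E14.5 KO replicate 3 and E14.5 WT replicate 3 were both among these.

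**Figure D5:**
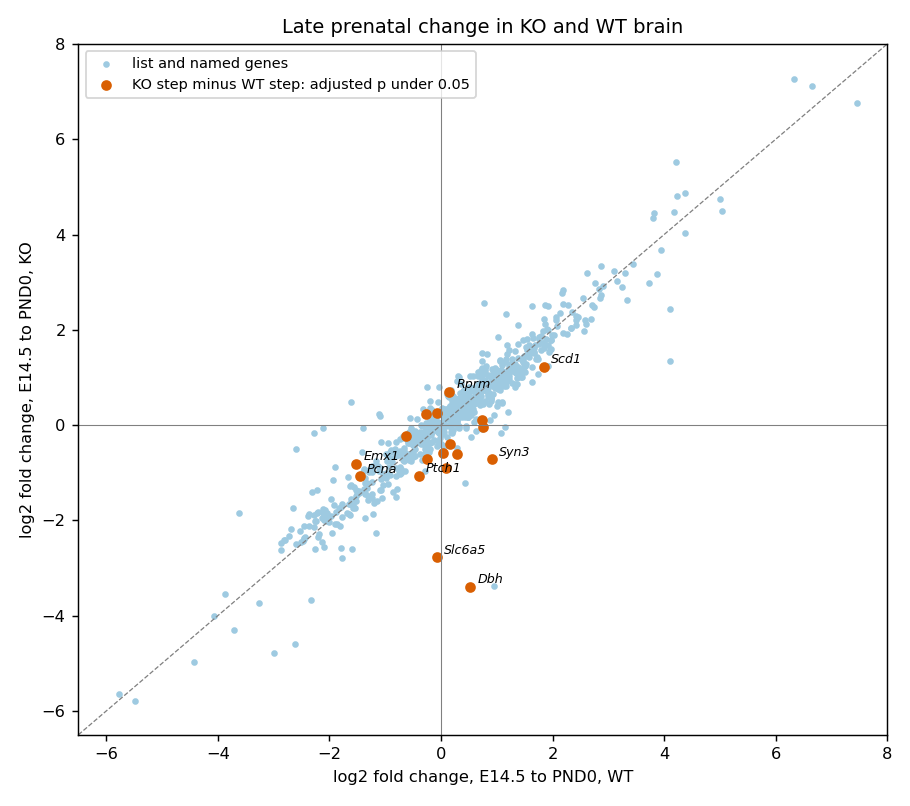
Log2 fold change from E14.5 to PND0 in KO (y axis) against WT (x axis) for 767 list and named genes, with 4 more outside the axes and a dashed line of equal change. Most points lie along the line, and the 18 marked genes, whose difference passed an adjusted p under 0.05, include Syn3, Dbh and Slc6a5 below it and Emx1, Rprm and Pcna above it.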

How the data were processed

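The authors deposited raw counts per gene symbol as whole numbers, in 1 table per stage. HISAT2, SAMtools, featureCounts, DESeq2 and build mm10 are named in the submitters' processing notes, without versions, and whether counting used strand is not given in the sources used here. From the deposited counts, edgeR 4.0.16 in R 4.3.3 fitted the KO step from E14.5 to PND0 on 8 libraries. It used TMM scaling, filterByExpr (minimum count 10, total 15), a robust quasi-likelihood fit and Benjamini-Hochberg adjusted p under 0.05 over all genes tested. The difference from the WT step came from 16 libraries and that between legs from 12. The standard error is the log2 fold change divided by the square root of F. The biological coefficient of variation was 13.1% in the fit of the KO step. On simulated counts with 15818 genes tested the KO step fit recovered 104 of 105 2-fold changes (99.0%). The same check gave 102 of 106 (96.2%) for the difference from WT and 71 of 96 (74.0%) for that between legs. The simulated spread was below 13.1% and the same for every gene, and no simulated library was made to stand apart. Recovery in the brain libraries, where 9857 genes were called in the KO step, was not tested.

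The members and lists (42, with 817 entries) were chosen with earlier results of these data known. Named genes are Dhcr7, the 10 largest called rises and falls at 5 CPM or more without overlap and outside predicted genes, up to 2 called genes per list and direction at 1 CPM or more, subunit pairs, the 5 smallest p and list members in the difference from WT, and 3 genes per direction for the legs. Some genes that met these rules are not reported here. Other list members named were chosen after their values were seen. Symbols were placed with GENCODE M21 (GRCm38), 53180 by name and 404 by synonym, with 1595 unmatched. Alternatives were RLE factors, no filter, DESeq2 1.42.0, a replicate block, all 32 libraries, length offsets, a sex-gene covariate, a test against 2-fold, and libraries left out.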

Additional observations from a re-analysis of the deposited data

Results flagged for a closer look

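Among 300 groups of 4 libraries looked at over 173 named genes, 1 library lay far from the other 3 in 24, where chance alone picks out about 1 in 20 groups. Of these, 8 were in PND0 KO replicate 3, 7 in PND0 KO replicate 4, none in the other newborn KO brains and 9 at E14.5. PND0 KO replicate 3 was the high library for Tnc at 376 CPM (others 222 to 240.0), Fgfr3 at 105 (others 52.3 to 55.5), Npc2 at 101 (others 79.4 to 82.9), Abca7 at 38.0 (others 30.6 to 31.3), Notum at 5.34 (others 2.84 to 3.15), Dkk3 at 84.5 (others 65.6 to 68.3) and Psat1 at 98.0 (others 72.1 to 75.7), and the low one for Prlr at 1.20 (others 2.44 to 2.65). PND0 KO replicate 4 was low for Dlk1 at 18.9 CPM (others 37.7 to 41.1), Trem2 at 2.82 (others 3.39 to 3.50), Eno2 at 98.6 (others 143 to 149), Slc12a5 at 237 (others 349 to 361) and Peg3 at 118 (others 161 to 169), and high for Hmgcs1 at 974 (others 911 to 919) and Slc12a2 at 58.8 (others 49.5 to 50.7). E14.5 KO replicate 2 was low for Tal2 at 26.5 CPM, Gli3 at 69.4 and Sult1a1 at 0.784, and high for Fech at 30.1 and Slc17a6 at 114. E14.5 KO replicate 4 was low for Me1 at 20.5 CPM and Gad2 at 134, and high for Nhlh2 at 90.5 and Abca7 at 59.4. The part of dissection in these values was not tested.

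The change from E14.5 to PND0 differed between KO and WT, by edgeR's quasi-likelihood test of the difference, in 18 of the named genes. As KO minus WT log2 fold change, the values were below 0 for Dbh (-3.92), Slc6a5 (-2.70), Syn3 (-1.63), 4931406P16Rik (-0.997), Map3k9 (-0.904), Ksr2 (-0.792), Ptch1 (-0.663), Lmtk2 (-0.635), Scd1 (-0.623), Mtor (-0.621), Peg3 (-0.557) and Gad2 (-0.456). They were above 0 for Emx1 (0.70), Rprm (0.543), Rplp1 (0.502), Rps18 (0.398), Pcna (0.381) and Stmn1 (0.316).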

How the results depend on the processing

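The count of genes changed in KO brain held near 9857 under most settings. Leaving out 1 library gave 9017 to 10351, and RLE factors, no filter, DESeq2, all 32 libraries, length offsets, a sex-gene covariate and library sizes without the most abundant genes gave 9494 to 10392. The test against a 2-fold change gave 1560. Leaving out PND0 KO replicates 3 and 4 together, chosen after seeing the data, gave 10765. The count for unequal legs was 7353 and ran from 6329 to 8355, with 8695 without that pair. The 110 genes that differed from WT became 663 with no filter, 635 with DESeq2, 1 in the fit of all 32 libraries, 13 with length offsets, 67 without the pair, and 16 to 380 with 1 library left out, and the cause was not tested.

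With a replicate block the counts were 9449, 88 and 7162 for the KO step, the difference from WT and the legs. The labels do not say that numbers pair animals. Deviations of same-numbered libraries correlated at -0.134 to 0.0388, and 1 of the E14.5 libraries correlated best with its own number. With so few libraries per stage these correlations cannot decide whether same-numbered libraries shared a litter or handling. Of the values of named genes under alternatives, 3271 kept their direction and side of the threshold, 273 lost the call, 4 gained one and 8 changed sign. The sign changes were in 3 genes without a call over all 8 libraries. Hba-a1 ran from -1.01 without PND0 KO replicate 3 to 0.26 without replicate 2, and was above 0 without E14.5 KO replicate 2 (0.0317) and PND0 KO replicate 1 (0.101) or 4 (0.0736). Slc17a6 ran from -0.0756 without PND0 KO replicate 3 to 0.235 without replicate 4, with -0.0035 under the sex-gene covariate, and Ksr2 from -0.108 without PND0 KO replicate 1 to 0.036 without replicate 4, with 0.123 without the pair. Depth limits genes under about 0.2 CPM, where 3 counts are the limit of detection, and each group is 4 brains.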
